A study of Homo sapiens with 8 samples.

Results

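The genes described here are the 8 writers and erasers of DNA methylation and their guides, namely DNMT1, DNMT3A, DNMT3B, UHRF1, UHRF2, TET1, TET2 and TET3, out of 60234 genes in the deposited table. The members were chosen by gene symbol. Where a symbol stood on several rows, the row with the highest mean CPM over the 8 libraries was to be kept, but each of the 8 symbols stood on 1 row. The family was named with the falls of DNMT3A and DNMT3B in these libraries already known, so the tests of those genes are given as a description and not as independent support. CPM is a gene's read count scaled to the total of reads that a library gave to genes. The test took the 15092 genes whose average over the libraries reached 1 CPM, and all 8 members were among them.

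Per the labels, all 8 libraries came from Rh41, an established human line of alveolar rhabdomyosarcoma, a muscle-like soft tissue tumour, with the PAX3-FOXO1 fusion. The control group held 4 libraries, labelled only as control, and the siG9a group held 4 libraries labelled as a knockdown of G9a, the histone H3 lysine 9 methyltransferase encoded by EHMT2. The series title names the knocked-down cells shG9a where the sample labels say siG9a, and neither the time after knockdown nor the reagent of the control is given in the sources used here. The series text calls the 4 libraries of a group biological replicates.

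In mammals, methyl groups are placed on cytosines next to guanines (CpG sites) by DNA methyltransferases. DNMT3A and DNMT3B set new marks, whereas DNMT1 copies existing marks after DNA replication, guided by UHRF1, which binds hemimethylated DNA and methylated H3K9. TET enzymes oxidize the methyl group and so start its removal. G9a touches this system in several ways, since H3K9 methylation and DNA methylation often lie on the same silent genes. Transcript levels of these enzymes were measured here, and DNA methylation was not.

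Depth was 1458825 to 1938665 reads per library, from reads recovered exactly behind the CPM, so that 1 read was worth 0.516 to 0.685 CPM. The members rested on 6 to 531 reads per library. Wilson intervals below, for a level or a share in 1 library, cover counting error only. The 95% intervals of log2 changes come from the fits and rest on the spread between libraries. EHMT2, the targeted gene, averaged 75.3 CPM (SD 15.0, n = 4) in control and 36.6 CPM (SD 16.2, n = 4) after knockdown. Its symbol stood on 7 rows, and these values are from the row with the highest mean CPM. Each siG9a library set against its same-numbered control gave 34.0%, 51.6%, 37.9% and 66.3% in replicates 1 to 4. With limma EHMT2 was called in the fit with a replicate block (adjusted p = 0.000472) and not in the one without (0.191). Mitochondrial genes took 4.59% to 9.18% of the reads in control and 5.21% to 13.7% in siG9a, more in siG9a in each of the 4 pairs, and their part in the results was not tested. The replicate 3 libraries had the lowest mean correlation with the other libraries of their group in both groups. In control it was 0.886, against 0.912 to 0.935 for replicates 1, 2 and 4. In siG9a it was 0.902, close to replicate 1 at 0.910, with replicates 2 and 4 at 0.934 and 0.930. On this measure replicate 3 was thus not set apart alone in siG9a. The muscle factor MYOD1 was at 95.3 CPM in control replicate 3 and 128 CPM in siG9a replicate 3, against 608 to 864 CPM in the other 6 libraries. A list of 16 muscle lineage markers summed to 456 CPM in control replicate 3 and 2769 to 3339 CPM in the other control libraries, with MYF5 at 0 in every library. A list of 13 neurofilament and neural genes summed to 9668 CPM in control replicate 3 and 8990 CPM in siG9a replicate 3, against 371 to 3065 CPM in the other 6. Most of these 2 sums came from NEFM (8046 and 7625 CPM) and NEFL (1557 and 1302 CPM). NEFM also differed among the other 6 libraries. It was at 156 CPM in control replicate 1 and 182 CPM in siG9a replicate 1. In replicates 2 and 4 it was at 1562 to 2498 CPM. NCAM1 of the same list was lowest in both replicate 3 libraries (30.8 and 28.6 CPM). The remaining genes of the list went both ways, so the sum speaks for the neurofilament genes and not for the whole list. Both replicate 3 libraries are labelled Rh41, but their MYOD1, NEFM and NEFL levels lay outside the range of the other 6 libraries. Their identity is in doubt, so each mean of 4 and each paired fit holds a pair of uncertain origin. The change of each member is therefore given also without replicate 3. EHMT2 without it differed by −1.01 on the log2 scale and was called by limma in the paired fit (adjusted p = 0.00867).

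In siG9a, transcripts of both de novo methyltransferases were at 25.1% and 28.4% of their control level, whereas the maintenance enzyme DNMT1 and the TET genes showed no change that passed the test. With group as the only term, limma on log2(CPM + 1) called 0 of 8 members at a Benjamini-Hochberg adjusted p under 0.05, and it called 0% of the 15092 genes. At an unadjusted p under 0.05 it had 4 of 8 members (DNMT3A, DNMT3B, UHRF2 and TET3) and 12.5% of all genes. Without a block, edgeR called 0 members (0% of all genes) and DESeq2 called 2 (1.93% of all genes). With the replicate number as a block (the paired fit), limma called 2 of 8 members, both lower, where it called 11.4% of all genes, 6.52% lower and 4.86% higher. These were DNMT3A and DNMT3B, which edgeR (11.3% of all genes called) and DESeq2 (6.42%) with the block called too. The groups did not overlap for 3 of 8 members, where 7.32% of all genes had no overlap. DNMT3B was lower in that way (3.45% of all genes), and UHRF2 and TET3 were higher (3.88% of all genes). The sign was the same in 4 of 4 pairs for 7 of 8 members, against 30.2% of all genes. The median log2 change of all genes tested was 0.01.

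**Figure D1:**
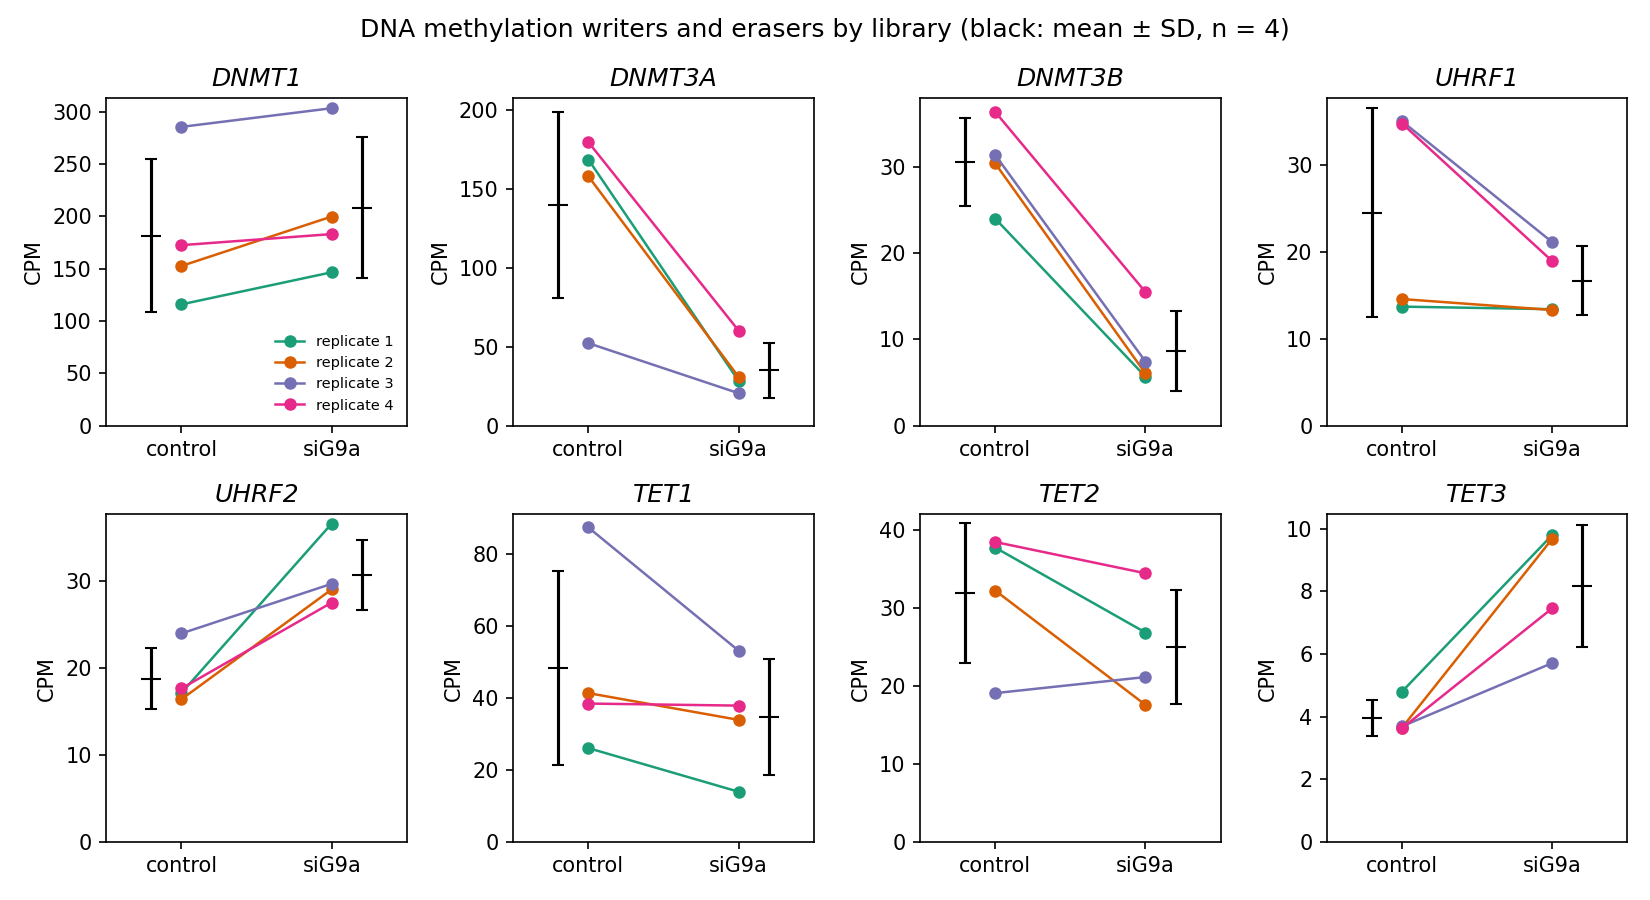
CPM of each gene in the 4 control and 4 siG9a libraries. Lines join libraries with the same replicate number, and black bars give the mean and SD (n = 4). All lines of DNMT3A and DNMT3B go down, those of UHRF2 and TET3 go up, and the replicate 3 libraries are highest for DNMT1 and TET1 and lowest for DNMT3A in both groups.

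DNMT3A, a de novo methyltransferase (ENSG00000119772), was at 169, 158, 52.3 and 179.7 CPM in control replicates 1 to 4. In siG9a replicates 1 to 4 it was at 28.4, 30.9, 20.6 and 60.2 CPM. All siG9a libraries but replicate 4 lay below all control libraries, and siG9a replicate 4 lay above the low control replicate 3, so the groups overlapped. In the paired fit DNMT3A fell, with group means of 139.6 ± 58.9 and 35.0 ± 17.4 CPM (SD, n = 4), or 25.1% of control. The log2 change was −1.93 ± 0.20 (SE) with a limma adjusted p of 5.19e-07 in the paired fit, and the SE was 0.41 with an adjusted p of 0.109 without the block. The two-sided p was 0.0571 by exact permutation of the 8 libraries, where the smallest possible is 0.0286. This permutation, here and below, ignores the pairs, and one that flips signs within 4 pairs cannot go below 0.125. By pair, the siG9a value was 16.8%, 19.5%, 39.3% and 33.5% of control in replicates 1 to 4. The fall was thus seen in every pair and was shallowest in replicate 3. Without both replicate 3 libraries DNMT3A averaged 169 CPM in control (SD 10.8, n = 3) and 39.8 CPM in siG9a (SD 17.7, n = 3), which is −2.14 on the log2 scale, and limma called it without the block (adjusted p = 0.000421) and with it (adjusted p = 9.46e-07).

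Muscle markers moved with DNMT3A. The 16 markers summed to 1131 to 1717 CPM in siG9a replicates 1, 2 and 4 and to 294 CPM in siG9a replicate 3, below the control library of the same number in each case. Of 13 markers tested, 8 were called lower and 0 higher in the paired fit, with a median log2 change of −1.20. Of all genes, 6.52% were called lower and 4.86% higher in that fit. ACTC1, cardiac actin that is also made in immature muscle, averaged 669 CPM in control (SD 411, n = 4) and 218 CPM in siG9a (SD 158, n = 4), and TNNT2, a troponin, averaged 294 CPM (SD 163, n = 4) and 74.4 CPM (SD 26.9, n = 4). Both were called lower in the paired fit. MYOD1 averaged 658 CPM (SD 375, n = 4) and 599 CPM (SD 331, n = 4) and was not called. The part of these markers in the DNMT3A result was not tested. In bulk RNA, fewer cells that express a gene and less RNA per cell cannot be told apart.

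DNMT3B, the second de novo methyltransferase (ENSG00000088305), was at 24.0, 30.4, 31.4 and 36.4 CPM in control replicates 1 to 4. In siG9a replicates 1 to 4 it was at 5.67, 6.05, 7.42 and 15.5 CPM, which rests on 10 to 27 reads. Every siG9a library was below every control library, with replicate 4 the highest in both groups. In the paired fit DNMT3B fell, with group means of 30.5 ± 5.08 and 8.65 ± 4.61 CPM (SD, n = 4), or 28.4% of control. The log2 change was −1.80 ± 0.27 (SE) with a limma adjusted p of 9.16e-05 in the paired fit, and the SE was 0.34 with an adjusted p of 0.0916 without the block. The exact two-sided permutation p was 0.0286, the smallest possible. By pair the siG9a value was 23.6%, 19.9%, 23.7% and 42.6% of control. Unlike DNMT3A, DNMT3B in the replicate 3 libraries lay within the range of the other libraries of its group. Its log2 change was −1.75 without them, called by limma without the block (adjusted p = 0.0218) and with it (adjusted p = 0.00135).

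DNMT3A and DNMT3B are read here as all transcripts of a gene together, since reads start at the poly(A) tail. DNMT3A has a short form that starts within the gene and shares the end of the long form, so the start in use was not resolved. The bases before these starts are shown because both genes were lower together. They are RefSeq promoter sequences (GRCh38.p14, minus strand for DNMT3A and plus strand for DNMT3B), the 250 bases before a start, written 5′ to 3′ with each CG in capitals. The DNMT3A window with the most CG is chr2:25341926-25342175. It is labelled outer only against the inner one, since the DNMT3A windows with 21 and 12 CG lie farther out. The inner DNMT3A window, at the start inside the gene, is chr2:25252316-25252565, and the DNMT3B window is chr20:32779602-32779851.

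DNMT3A outer window: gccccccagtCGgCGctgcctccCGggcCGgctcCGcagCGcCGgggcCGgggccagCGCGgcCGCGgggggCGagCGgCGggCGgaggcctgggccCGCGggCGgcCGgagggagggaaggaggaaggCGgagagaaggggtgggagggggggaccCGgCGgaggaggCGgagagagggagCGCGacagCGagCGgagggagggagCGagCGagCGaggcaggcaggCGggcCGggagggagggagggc

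DNMT3A inner window: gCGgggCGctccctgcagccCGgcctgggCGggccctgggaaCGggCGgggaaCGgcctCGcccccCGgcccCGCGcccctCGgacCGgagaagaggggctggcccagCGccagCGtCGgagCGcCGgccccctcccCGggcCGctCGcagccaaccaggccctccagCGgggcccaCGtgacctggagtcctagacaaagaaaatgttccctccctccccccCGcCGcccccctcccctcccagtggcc

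DNMT3B: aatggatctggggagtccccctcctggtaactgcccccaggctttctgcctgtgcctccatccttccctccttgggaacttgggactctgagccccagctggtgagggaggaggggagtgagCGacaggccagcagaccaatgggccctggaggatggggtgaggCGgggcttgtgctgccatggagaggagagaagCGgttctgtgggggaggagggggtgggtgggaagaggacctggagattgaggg

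The printed DNMT3A windows held 33 and 25 CG, the other DNMT3A windows held 22, 21, 15 and 12, and the DNMT3B window held 3. This was the only DNMT3B window available. Whether it lies at the main start of the gene or at a start inside it was not tested, so it may not describe the main promoter. Of the 35116 windows of this length in the table, with a median of 11 CG, 91.9% had fewer CG than the outer DNMT3A window and 22.9% had fewer than the DNMT3B window. The DNMT3A window with 12 CG lay near that median, with fewer CG in 51.5% of windows. The E2F-type motifs TTTCCCGC, TTTGGCGC, TTTCGCGC, TTTGCCGC and TTTCCCGG, searched on both strands, were found in none of the 6 DNMT3A windows nor in the DNMT3B window when each was taken with the next 50 bases. They were found in the DNMT1 window and in 2 of 3 UHRF1 windows, where 4.74% of all such windows of 300 bases held one. These counts describe letters only.

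**Figure D2:**
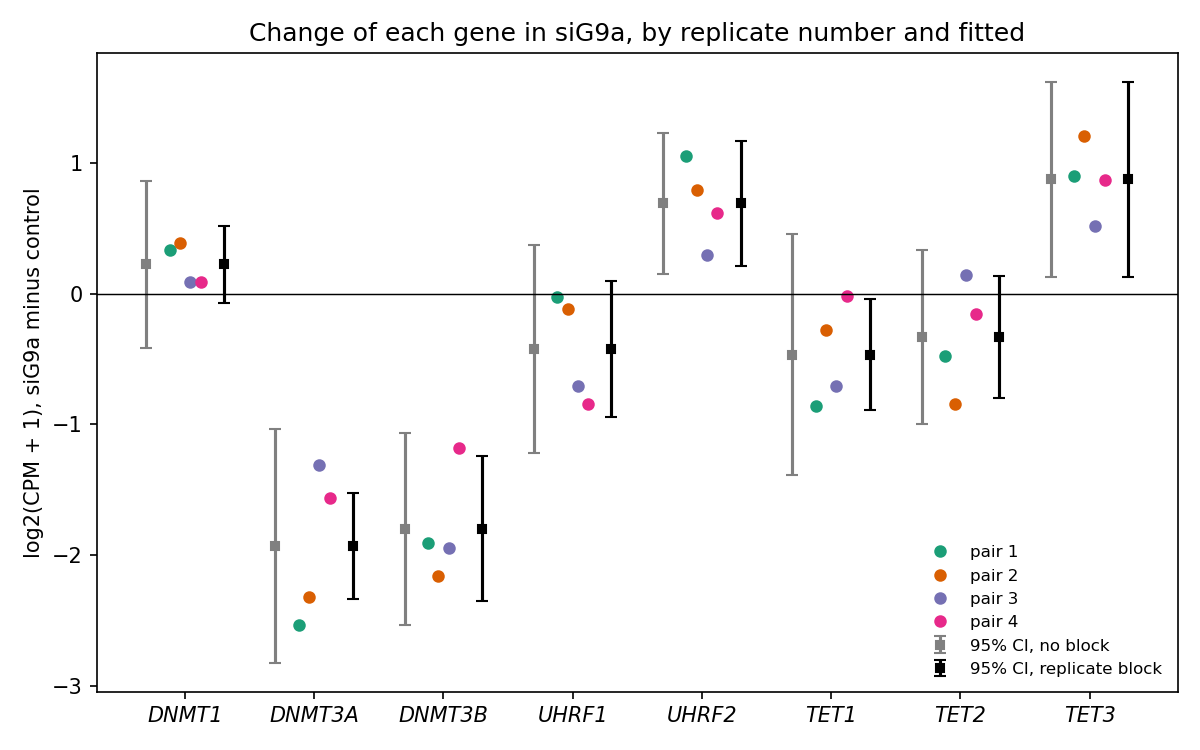
Difference in log2(CPM + 1) between siG9a and control for each gene. Coloured points are the 4 pairs of libraries with the same number, and squares with bars are the fitted change with its 95% confidence interval without (grey) and with (black) the replicate block. The intervals of DNMT3A and DNMT3B lie below −1 in both fits, and those of DNMT1, UHRF1 and TET2 include 0 in both.

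DNMT1, the maintenance methyltransferase, was at 116, 153, 285 and 172 CPM in control replicates 1 to 4. In siG9a it was at 146, 199.7, 303 and 183 CPM. The groups overlapped widely, and replicate 3 was the highest library of each group. DNMT1 was above its control in 4 of 4 pairs, at 126%, 131%, 106.3% and 106.1% of it. The log2 change was 0.22 with a 95% interval of −0.07 to 0.52 and a limma adjusted p of 0.351 in the paired fit (0.816 without the block), so it did not pass the test. Each library held at least 169 reads of DNMT1. Single libraries moved the value, which was 0.47 without control replicate 3, 0.37 without siG9a replicate 1, 0.04 without control replicate 1 and 0.03 without siG9a replicate 3. With the replicate 3 pair left out it was 0.27 (limma adjusted p = 0.416 in the paired fit).

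UHRF1, the ubiquitin ligase that brings DNMT1 to hemimethylated sites, was at 13.7, 14.6, 35.1 and 34.8 CPM in control and at 13.4, 13.3, 21.1 and 18.9 CPM in siG9a. Control replicates 3 and 4 were the high libraries, and all siG9a values lay within or just under the control range. The siG9a value was 97.8%, 91.4%, 60.3% and 54.4% of control by pair. UHRF1 differed by −0.43 on the log2 scale, with a 95% interval of −0.94 to 0.09 and a limma adjusted p of 0.306 in the paired fit (0.690 without the block). It was −0.65 without control replicate 1, −0.22 without control replicate 3 and −0.22 without control replicate 4. The value was −0.33 without both replicate 3 libraries (limma adjusted p = 0.575 in the paired fit).

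UHRF2, the UHRF1 paralog, went the other way. It was at 17.1, 16.4, 24.0 and 17.7 CPM in control and at 36.6, 29.1, 29.7 and 27.5 CPM in siG9a. Every siG9a library was above every control library. The means were 18.8 ± 3.49 and 30.7 ± 4.03 CPM (SD, n = 4), or 163% of control, with an exact two-sided permutation p of 0.0286, the smallest possible. The log2 change was 0.69 with a 95% interval of 0.21 to 1.16, but the limma adjusted p was 0.0532 in the paired fit and 0.292 without the block, so it was not called. It was called when only the 10862 genes averaging 5 CPM or more were tested (paired adjusted p = 0.0449). Without both replicate 3 libraries the change was 0.82 (limma adjusted p = 0.0692 in the paired fit). An antisense gene annotated on the UHRF2 locus had 0 reads in all 8 libraries.

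A set of 20 S phase and proliferation genes was examined beside DNMT1 and UHRF1, which are transcribed mainly in cycling cells. It summed to 5493 to 6316 CPM in control and 5341 to 6828 CPM in siG9a, with a median log2 change of 0.15. In the paired fit FEN1 and RRM1 were called higher and MCM4 lower, and no other gene of the set was called (FEN1 and RRM1 are named after their values were seen). The same fit called 11.4% of all genes in either direction.

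TET1 was at 26.1, 41.3, 87.3 and 38.4 CPM in control and at 13.9, 33.9, 53.1 and 37.9 CPM in siG9a. The groups overlapped, and replicate 3 was again the highest library of each. TET1 was lower in 4 of 4 pairs, at 53.5%, 82.0%, 60.8% and 98.5% of control. TET1 differed by −0.47 on the log2 scale, with a 95% interval of −0.89 to −0.04 and a limma adjusted p of 0.150 in the paired fit (0.707 without the block). It was −0.09 without siG9a replicate 1, −0.14 without control replicate 3, and −0.71 without control replicate 1 or without siG9a replicate 3. The pair of replicate 3 left out, it was −0.39 (limma adjusted p = 0.413 in the paired fit). The pseudogenes COX20P1 (16.6 CPM on average) and RPS3AP37 (1.67 CPM) lie within TET1 on the same strand, so reads there may have been divided.

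TET2, a TET enzyme without a CXXC domain of its own, was at 37.7, 32.2, 19.1 and 38.4 CPM in control and at 26.8, 17.6, 21.1 and 34.4 CPM in siG9a. It was lower in 3 of 4 pairs and higher in replicate 3. TET2 differed by −0.33 on the log2 scale, with a 95% interval of −0.80 to 0.13 and a limma adjusted p of 0.385 in the paired fit (0.710 without the block). It was −0.55 without control replicate 3 and −0.18 without siG9a replicate 2. Leaving out the replicate 3 pair gave −0.49 (limma adjusted p = 0.270 in the paired fit).

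TET3 was the rarest member, at 4.80, 3.65, 3.69 and 3.63 CPM in control and at 9.80, 9.68, 5.71 and 7.46 CPM in siG9a, from 6 to 19 reads per library. Every siG9a library was above every control library, with replicate 3 the lowest in siG9a. The means were 3.94 ± 0.57 and 8.16 ± 1.96 CPM (SD, n = 4), or 207% of control, with an exact two-sided permutation p of 0.0286, the smallest possible. The log2 change was 0.87 ± 0.36 (SE) with a limma adjusted p of 0.123 in the paired fit (0.331 without the block), so TET3 was not called. Without both replicate 3 libraries it was 0.99 (limma adjusted p = 0.154 in the paired fit). At this depth the 95% Wilson interval of single libraries was wide, from 2.32 to 9.91 CPM in control replicate 1 and from 6.27 to 15.3 CPM in siG9a replicate 1.

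Shares of reads within a library do not depend on how libraries are scaled. Of all DNMT reads, DNMT3A made up 54.7%, 46.3%, 14.2% and 46.3% in the 4 control libraries, in replicate order, and 15.7%, 13%, 6.21% and 23.3% in siG9a. DNMT3B made up 7.78% to 9.36% in control and 2.24% to 5.99% in siG9a, so its groups did not overlap, also not in replicate 3. DNMT1 made up 37.6%, 44.7%, 77.3% and 44.4% in control and 81.1%, 84.4%, 91.6% and 70.7% in siG9a. The balance moved in each pair from mixed to mostly DNMT1 reads, except that control replicate 3 was already mostly DNMT1. The number of DNMT3A reads per DNMT3B read was 4.71 ± 2.23 in control and 4.19 ± 1.09 in siG9a (SD, n = 4), so the means were closer than the libraries of a group were to each other. The sum of DNMT3A and DNMT3B averaged 170.2 CPM in control (SD 59.0, n = 4) and 43.7 CPM in siG9a (SD 21.7, n = 4).

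Among the UHRF reads, UHRF2 made up 33.7% to 55.6% in control and 58.4% to 73.2% in siG9a. The number of UHRF2 reads per UHRF1 read was 0.89 ± 0.35 in control and 1.94 ± 0.63 in siG9a (SD, n = 4), without overlap between the groups. Of the TET reads, TET3 made up 3.35% to 7% in control and 7.14% to 19.4% in siG9a, and TET1 made up 38.0% to 79.3% in control and 27.6% to 66.4% in siG9a. The summed TET level averaged 84.1 CPM in control (SD 18.1, n = 4) and 67.8 CPM in siG9a (SD 14.5, n = 4), and the groups overlapped.

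**Figure D3:**
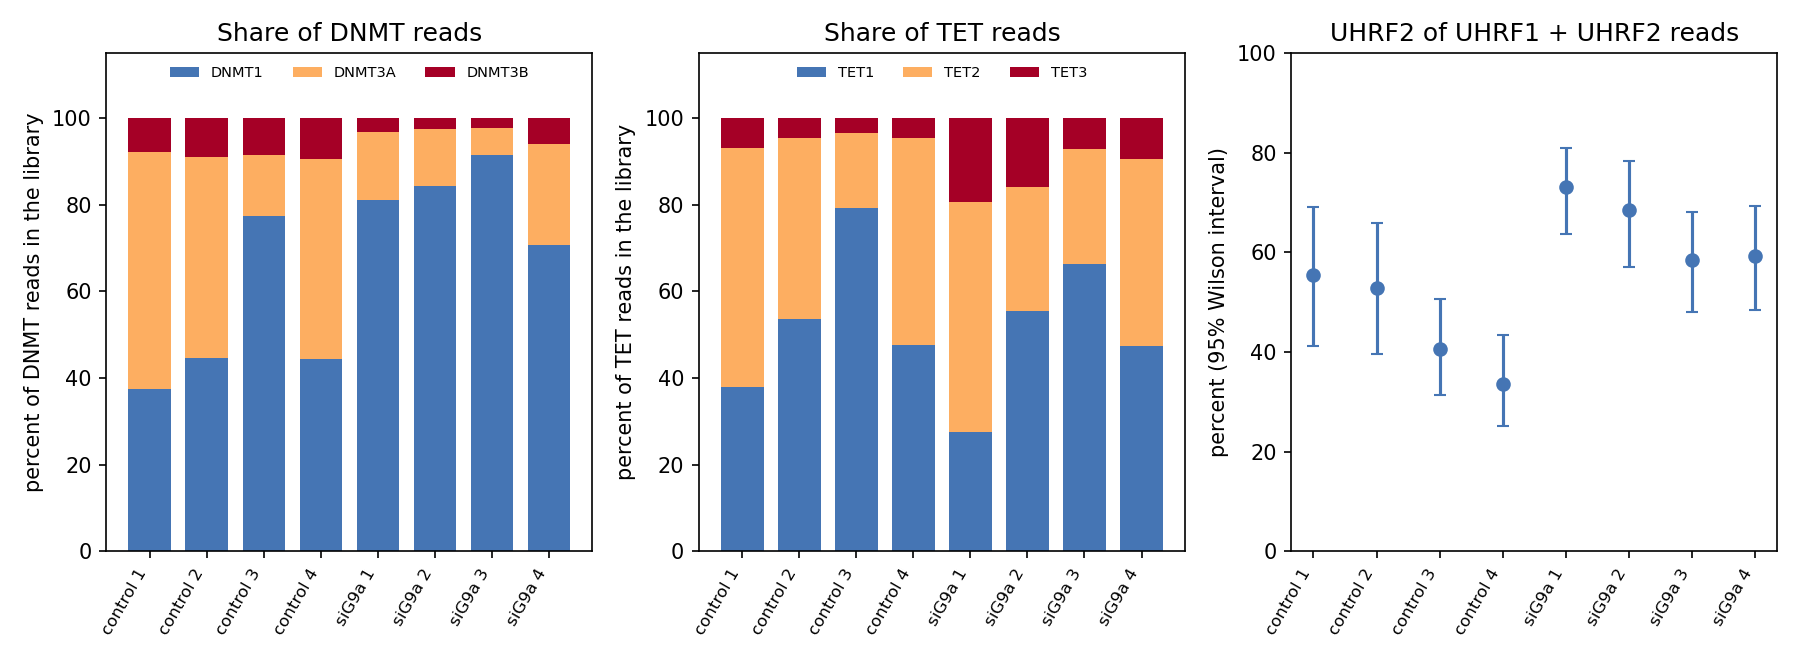
Share of DNMT1, DNMT3A and DNMT3B in all DNMT reads (left), of TET1, TET2 and TET3 in all TET reads (middle), and of UHRF2 in UHRF1 plus UHRF2 reads with its 95% Wilson interval (right), for each of the 8 libraries. DNMT1 holds 70.7% or more of the DNMT reads in the siG9a libraries, and the UHRF2 points of siG9a all lie above those of control.

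The order of levels differed between the groups. Reads came from transcript ends, so no correction for length was made. Annotated coding transcript ends ran from 1 for TET1 to 8 for DNMT1. Whether the ends of different genes were captured and counted equally was not tested, so the order is one of reads and not of transcripts. DNMT3A was the highest member in 3 of 4 control libraries, and DNMT1 was the highest in control replicate 3 and in all 4 siG9a libraries. In control the means ran from DNMT1 (182 CPM) and DNMT3A (139.6) through TET1 (48.3), TET2 (31.8), DNMT3B (30.5), UHRF1 (24.5) and UHRF2 (18.8) to TET3 (3.94). All neighbours in that order overlapped in range except UHRF2 and TET3. In siG9a, DNMT1 (208 CPM) stood above all others without overlap, and DNMT3B (8.65) and TET3 (8.16) were last and overlapped.

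Replicate 3 set several members apart in both groups. TET1 and DNMT1 were above the other libraries of the group in control and in siG9a, by 1.31 and 0.97 in log2(CPM + 1) in control and by 0.99 and 0.79 in siG9a. UHRF1 was the highest in both groups too, by 0.84 and 0.47 over the mean of the others. In control, however, replicate 4 was nearly as high (34.8 against 35.1 CPM), so replicate 3 did not stand apart there. DNMT3A was the lowest in both groups, by −1.67 in control and −0.84 in siG9a. The sum of the neural list, mostly NEFM and NEFL, was highest in the same libraries, and that of the muscle list was lowest. Their part in the members' levels was not tested.

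Likeness was taken as the Pearson correlation of log2(CPM + 1) over the 8 libraries, among the 8897 genes averaging 10 CPM or more. The points share libraries and the group difference, so these values describe and carry no test. Nearest to DNMT3A were ATP2A1 (r = 0.990), the calcium pump of fast muscle, CTD-2545M3.8 (0.988) and ITGA1 (0.988), an integrin chain. ATP2A1 was at 23.4 CPM in control and 5.52 CPM in siG9a. Nearest to DNMT3B were AKIRIN1 (0.980), CFL1 (0.979), the actin-severing cofilin, and MTDH (0.977). AKIRIN1 was at 349 CPM in control and 79.97 CPM in siG9a. Near to DNMT1 were SESN2 (0.991) and PELP1 (0.990), and nearest to TET1 were H1FX (0.991), MXRA8 (0.989) and TIMM13 (0.989). Nearest to UHRF1 were TRMT2B (0.958), FAM135A (0.957) and PBRM1 (0.954), and nearest to UHRF2 were OIP5 (0.977), ARPC3 (0.967) and WDR11 (0.966). Nearest to TET2 were LUZP2 (0.984), SULF1 (0.974) and IPP (0.966), and nearest to TET3 were WDR60 (0.976), ADCY6 (0.976) and RP4-758J18.2 (0.973). Between members, DNMT3A and DNMT3B had r = 0.86, which was 0.42 after the group means were removed, and DNMT1 and TET1 had 0.75 and 0.92.

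Other genes of the pathway were read from 5 lists by role, with 70 genes tested. In the paired fit 12 were called (17.1%), 5 higher (7.14%, against 4.86% of all genes) and 7 lower (10%, against 6.52%), and 0 were called by limma without the block, where 12 had an unadjusted p under 0.05. Of the 12, edgeR with the block called 12 and DESeq2 with the block called 7, leaving out PAF1 (adjusted p = 0.135), LIG3 (0.0817), GADD45G (0.0619), MAT2B (0.0597) and WHSC1 (0.0569). CDCA7L, PAF1, LIG3 and WHSC1 were no longer called without replicate 3, and the other 8 were. Most genes of the lists averaged 5 CPM or more. When only the 10862 genes of that level were tested, the paired fit called 1653, 714 higher and 939 lower. The shares of all genes given above are thus not matched to the lists for level.

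Of 12 genes tested from the list of maintenance partners, CDCA7L and PAF1 were called. PAF1 entered that list by a mix-up of symbols, in place of the PCNA-associated factor. Without it, a count added after the data were seen, 1 of 11 was called in this list and 11 of 69 (15.9%) over the 5 lists, 4 higher and 7 lower. CDCA7L, a relative of the chromatin-remodelling cofactor CDCA7, fell, at 72.8 ± 4.15 CPM in control against 45.7 ± 2.54 CPM after knockdown (SD, n = 4), and limma gave an adjusted p of 0.0137 in the paired fit and 0.0552 without replicate 3. PAF1, a subunit of the RNA polymerase II-associated PAF1 complex with no known role in copying methylation, rose, at 40.0 ± 8.66 CPM in control against 59.1 ± 5.23 CPM after knockdown (SD, n = 4), and limma gave an adjusted p of 0.0455 in the paired fit and 0.0746 without replicate 3. HELLS, the remodeller that CDCA7 activates, averaged 203 CPM in control (SD 69.3, n = 4) and 256 CPM in siG9a (SD 102.1, n = 4), and was not called.

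Of 11 methyl-CpG readers and their relatives, MBD3 alone was called. MBD3, a subunit of the NuRD repressor that binds methylated DNA poorly in mammals, fell, at 262 ± 62.1 CPM in control against 151 ± 72.1 CPM after knockdown (SD, n = 4), a log2 change of −0.96 with a limma adjusted p of 0.00111 in the paired fit.

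Of 18 genes of base removal and active demethylation, 3 were called, all lower. GADD45G, a growth arrest factor linked to demethylation, fell, at 141.6 ± 10.6 CPM in control against 66.2 ± 37.0 CPM after knockdown (SD, n = 4), a log2 change of −1.26 with a limma adjusted p of 0.000606 in the paired fit. PARP1, a sensor of DNA strand breaks, fell, at 889 ± 124 CPM in control against 627 ± 206 CPM after knockdown (SD, n = 4), and LIG3, the ligase that closes repaired strands, fell, at 78.5 ± 26.4 CPM in control against 50.5 ± 8.52 CPM after knockdown (SD, n = 4). LIG3 had a limma adjusted p of 0.0387 in the paired fit and 0.166 without replicate 3.

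Of 17 enzymes that make the methyl donor or set the cofactors of TET enzymes, 3 were called higher and 1 lower, with a median log2 change of 0.36. MAT2A, the catalytic subunit of S-adenosylmethionine synthase, rose, at 49.0 ± 19.7 CPM in control against 91.5 ± 21.7 CPM after knockdown (SD, n = 4), and limma gave an adjusted p of 0.00316 in the paired fit. MAT2B, its regulatory subunit, rose, at 13.9 ± 5.54 CPM in control against 27.2 ± 4.11 CPM after knockdown (SD, n = 4), and limma gave an adjusted p of 0.0164 in the paired fit. SDHC, a membrane subunit of succinate dehydrogenase, rose, at 16 ± 7.55 CPM in control against 37.4 ± 5.52 CPM after knockdown (SD, n = 4), and limma gave an adjusted p of 0.000961 in the paired fit. NNMT, which uses S-adenosylmethionine to methylate nicotinamide, fell, at 43.7 ± 25.6 CPM in control against 15.5 ± 9.21 CPM after knockdown (SD, n = 4), and limma gave an adjusted p of 0.00147 in the paired fit.

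Of 12 partners of de novo methylation tested, 1 was called higher and 1 lower. These were WHSC1 and WHSC1L1 (NSD2 and NSD3), H3K36 methyltransferases whose mark DNMT3A and DNMT3B can bind. WHSC1 rose, at 208 ± 27.9 CPM in control against 285 ± 12.7 CPM after knockdown (SD, n = 4), and limma gave an adjusted p of 0.0345 in the paired fit and 0.0905 without replicate 3. WHSC1L1 fell, at 197 ± 21.9 CPM in control against 117 ± 26.0 CPM after knockdown (SD, n = 4), and limma gave an adjusted p of 0.00132 in the paired fit and without overlap between the groups. DNMT3L, the germline cofactor of DNMT3A, was at 0 reads in every library.

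Germline genes are a usual readout of promoter methylation in somatic cells. Of 24 such genes, 13 had 0 reads in all 8 libraries, and the list summed to 3.66 to 8.23 CPM in control and 4.56 to 8.26 CPM in siG9a. The 2 that reached a mean of 1 CPM were MAEL and PIWIL2, and neither was called. At this depth no reactivation of the list was detectable, and a gene without reads may still lie under 3 reads, or 1.55 to 2.06 CPM, in a library.

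**Figure D4:**
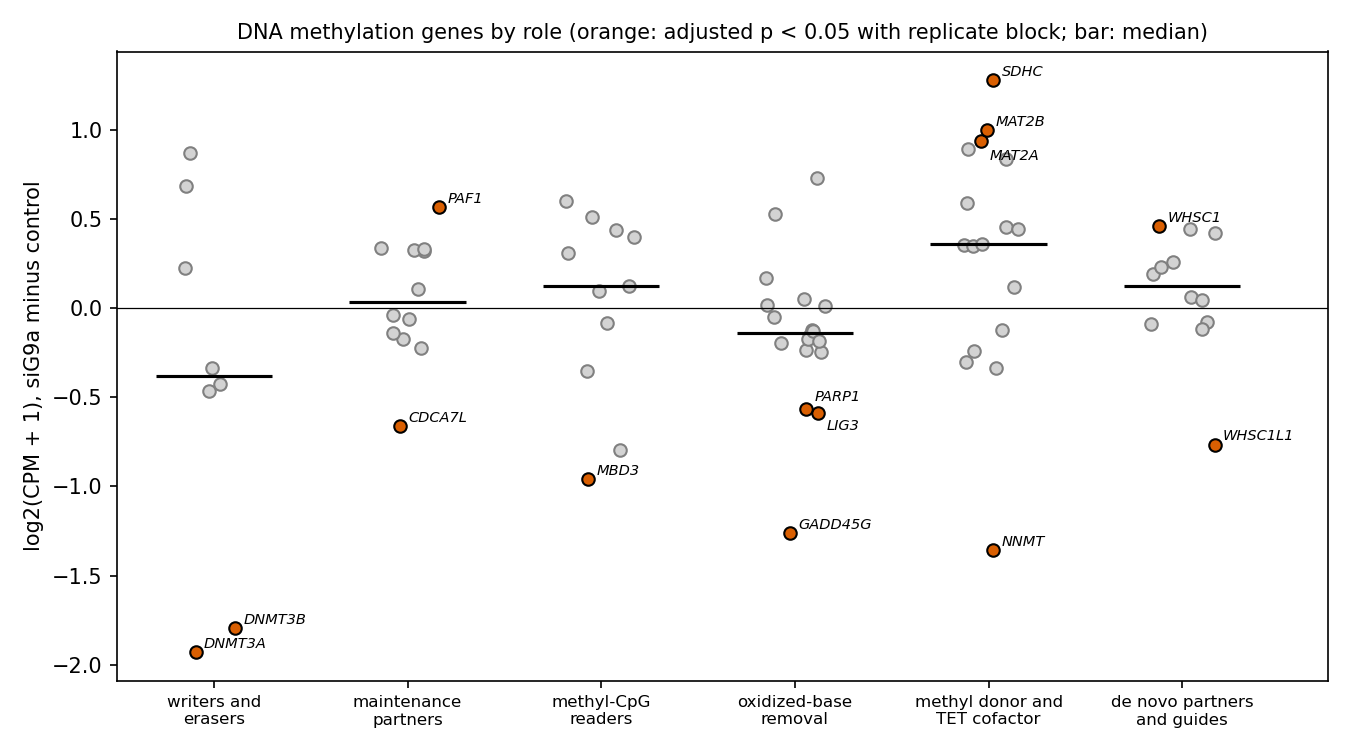
Difference in log2(CPM + 1) between siG9a and control for the 8 writers and erasers and the 70 genes of the 5 lists by role. Each point is a gene, orange points have a limma adjusted p under 0.05 in the paired fit, and bars are medians. DNMT3A and DNMT3B are the lowest points of the plot, and SDHC is the highest.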

How the data were processed

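RNA of 8 libraries (4 control, 4 siG9a) was made into QuantSeq 3′ libraries and sequenced on a NextSeq500, per the labels' protocols. The deposited table gives CPM for 60234 genes to 2 decimals. FastQC 0.11.8, Trim Galore, STAR 2.5.0a, HTSeq 0.8.0 and edgeR 3.28 are named in the submitters' processing notes, with both GRCh38 and hg19 as builds, so no gene coordinates of the files are given. The use of strand is not given in the sources used here. CPM as deposited by the authors scales each count to the library's assigned reads. All non-zero values (100%) were whole multiples of 1 read within 0.0051 CPM.

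Groups were compared by limma 3.58.1 under R 4.3.3 (lmFit, eBayes with trend, two-sided) on log2(CPM + 1), for genes averaging 1 CPM or more, with Benjamini-Hochberg adjustment over all 15092. The pseudocount of 1 understates changes of low genes. The replicate numbers come from the sample titles. Same-numbered libraries deviated together from their group means (correlation across genes 0.50, 0.10, 0.67 and 0.13, each above 0.1), against −0.52 to 0.14 over the 12 combinations of different numbers. The highest of these, control replicate 2 with siG9a replicate 4, exceeded the values of pairs 2 and 4. Every pair passed the limit of 0.1, so the fit with the number as a block is given beside the main one. edgeR 4.0.16 and DESeq2 1.42.0 were run on the recovered reads. Scripts were tested on simulated data. A check for a library deposited more than once (chi-square of the reads within a group, 5.90 to 28.7 per degree of freedom) found none.

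Members and gene lists were chosen with earlier results of these data known. Named were all members, EHMT2, the 3 nearest genes of each member (10 CPM or more), of each pathway list at most the 4 genes with the smallest p and those whose call changed with the block, and the 3 highest genes of a marker list. Other named genes are defining markers or genes at 0. Older symbols were matched through a gene name table. Overlaps between genes come from GENCODE 29, in which UHRF1 was matched by symbol. Some genes that the naming rule covers are not reported here. Promoters of all 8 members were found in the RefSeq table (19 windows).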

Additional observations from a re-analysis of the deposited data

Results flagged for a closer look

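Dixon's ratio was taken for the 8 genes and EHMT2 in each group of 4, 18 groups in all, of which 3 had a library beyond the 95% critical value and chance gives about 0.90. DNMT3A was low in control replicate 3, at 52.27 CPM against 158 to 179.7 CPM in the rest of the group. UHRF2 was high in the same library, at 23.98 CPM against 16.4 to 17.7 CPM. TET3 was high in control replicate 1, at 4.80 CPM (7 reads) against 3.63 to 3.69 CPM (6 or 7 reads).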

How the results depend on the processing

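No direction of any of the 8 genes changed under any of the 31 alternatives. In limma, the replicate block, the filter and the trend setting leave the log2 change as it is. Alternatives that differ only in these could not change a direction. DNMT3A and DNMT3B were called in all 12 fits with a replicate block, with log2 changes of −2.14 to −1.73 and −2.0 to −1.42, and in 4 of the 19 without it. UHRF2 was called in 1 of 12 fits with the block, and DNMT1, UHRF1, TET1, TET2 and TET3 in none of the 31.

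Without the block, the count of genes called was 0, and it was 18 with no filter, 436 with array weights and 291 with DESeq2. The members called were 0, and 2 with array weights and with DESeq2. With 1 library left out the counts ran from 0 to 300, the highest without control replicate 3 and 2 without siG9a replicate 4, and members called from 0 to 2. Without both replicate 3 libraries 415 genes and 2 members were called.

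With the replicate block the paired fit called 1717 genes and 2 members. The count was 1709 with edgeR, 969 with DESeq2, 1363 and 1710 with pseudocounts of 0.1 and 5, 1693 with median-ratio scaling, 1688 with quantile normalization and 1653 at a mean of at least 5 CPM. Leaving out 1 pair gave 653 (without replicate 2) to 1392 genes (without replicate 4), with 972 without replicate 1 and 1180 without replicate 3. Each of these fits called 2 members, except 3 at a mean of at least 5 CPM. The cause of these differences was not tested. TET3 rested on 6 to 19 reads per library and DNMT3B in siG9a on 10 to 27. PAF1 was left out of its list after the data were seen, which gave 11 called genes of 69 over the lists against 12 of 70.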
